A study of Mus musculus with 6 samples.

Results

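The nuclear RNA export factor family was examined in whole testis of 5-week-old mice, with its members taken as all probe sets whose platform gene symbol was exactly Nxf1, Nxf2, Nxf3, Nxf7, Nxt1 or Nxt2. This gave 6 of the 18193 genes with a probe set of a single symbol, and 7 of the 45037 probe sets tested: 2 for Nxf1 and 1 for each other gene. The study compared mice lacking Phf13 (Phf13 knockout, 3 arrays) with wild-type mice (3 arrays), both labelled as whole testis; the sources used here do not give the strain, the knockout allele or whether arrays came from separate animals. The Phf13 protein binds methylated histone H3 through its PHD finger. The family was chosen by symbol, but with its levels and its differences between the genotypes on these arrays in view. Those differences are therefore given below as a description, with standard errors. Counts of members that passed in the fit across all probe sets are given beside the share of all, and nothing is read from them.

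Nxf proteins carry messenger RNA out of the nucleus. Nxf1, which is made in nearly all cells, binds the small partner protein Nxt1, is loaded onto finished mRNA by adaptor proteins of the TREX complex, and passes through the nuclear pore by contacts with nucleoporins. Mammals have further copies of both genes on the X chromosome, several of which are used mainly in the germ line or in single somatic cell types. Mouse Nxf2 is a germ cell gene, mouse Nxf3 has been located to Sertoli cells, which support germ cells inside the tubule, and human NXF3 leaves the nucleus through the exportin XPO1 in place of the Nxf1 route.

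The family divides by chromosome, which the choice of members did not use. In RefSeq (assembly GRCm38.p6) Nxf1 lies on chromosome 19 and Nxt1 on chromosome 2, and 4 genes, Nxf2, Nxf7, Nxf3 and Nxt2, lie on X in that order. Between Nxf2 and Nxf7 there were 8 other protein-coding genes, between Nxf7 and Nxf3 10, and between Nxf3 and Nxt2 53.

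The sequences just before the annotated starts are shown for both autosomal genes and for the neighbouring X-linked pair Nxf2 and Nxf7, because they set the ubiquitous genes beside their X-linked relatives. Each is the 250 bases before the most upstream start in RefSeq (GRCm38.p6), read 5′ to 3′ on the gene's strand, with capitals for matches on either strand to 4 motifs. These were the E-box core CACGTG, which is a palindrome, the CCAAT box, the GC box spelled GGGCGG, and the TATA box spelled TATAAA. No match overlapped another in these windows. The Nxf2 window is chrX:134964755-134965004, minus strand; that of Nxf7 is chrX:135598782-135599031, minus strand; that of Nxf1 is chr19:8756853-8757102, plus strand; and that of Nxt1 is chr2:148672365-148672614, plus strand.
Nxf2: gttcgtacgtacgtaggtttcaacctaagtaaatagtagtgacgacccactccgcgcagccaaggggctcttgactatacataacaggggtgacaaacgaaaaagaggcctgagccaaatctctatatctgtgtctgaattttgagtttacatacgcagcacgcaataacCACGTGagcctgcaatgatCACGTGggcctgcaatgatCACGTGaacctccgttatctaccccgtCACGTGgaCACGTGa
Nxf7: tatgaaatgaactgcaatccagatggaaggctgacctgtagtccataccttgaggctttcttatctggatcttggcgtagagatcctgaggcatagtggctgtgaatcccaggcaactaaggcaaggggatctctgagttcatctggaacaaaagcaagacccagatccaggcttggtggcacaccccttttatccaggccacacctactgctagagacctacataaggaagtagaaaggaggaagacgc
Nxf1: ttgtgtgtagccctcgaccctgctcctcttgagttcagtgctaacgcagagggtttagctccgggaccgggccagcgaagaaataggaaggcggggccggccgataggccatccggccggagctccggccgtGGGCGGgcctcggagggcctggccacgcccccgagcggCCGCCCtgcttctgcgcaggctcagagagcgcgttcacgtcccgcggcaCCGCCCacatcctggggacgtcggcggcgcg
Nxt1: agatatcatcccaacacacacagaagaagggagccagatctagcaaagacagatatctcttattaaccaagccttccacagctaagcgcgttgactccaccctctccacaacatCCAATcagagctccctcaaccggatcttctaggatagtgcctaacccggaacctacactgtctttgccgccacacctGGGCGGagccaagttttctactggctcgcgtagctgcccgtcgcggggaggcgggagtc

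The window of Nxf2 held 5 copies of CACGTG, all close to the start, with first bases at -80, -61, -42, -15 and -7 from the start. The copies at -80, -61 and -42 are evenly spaced, and nearly the same bases follow those at -80 and -61. These copies thus lie in a short repeat and are not separate occurrences. Each copy also holds a CG, which enters the CG count below. Of the 32851 windows of this length in the RefSeq table, 6.02% held CACGTG at all and 5 held it 5 times. The other windows of the family, including the second window of Nxf2, held none. No window was available for Nxf3, so these statements do not cover it. Nxf1 had GGGCGG 3 times and Nxt1 had 1 GGGCGG and 1 CCAAT, motifs found in 32.7% and 33.8% of all windows. Nxf7 had none of the 4 motifs, and TATAAA, found in 12.4% of all windows, was in no window of the family. The dinucleotide CG occurred 30 times before Nxf1 and 16 times before Nxf2, against a median of 6 over all windows, and 2 times before Nxf7. These matches are letters in a window and were not linked to binding by any measurement here.

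**Figure D1:**
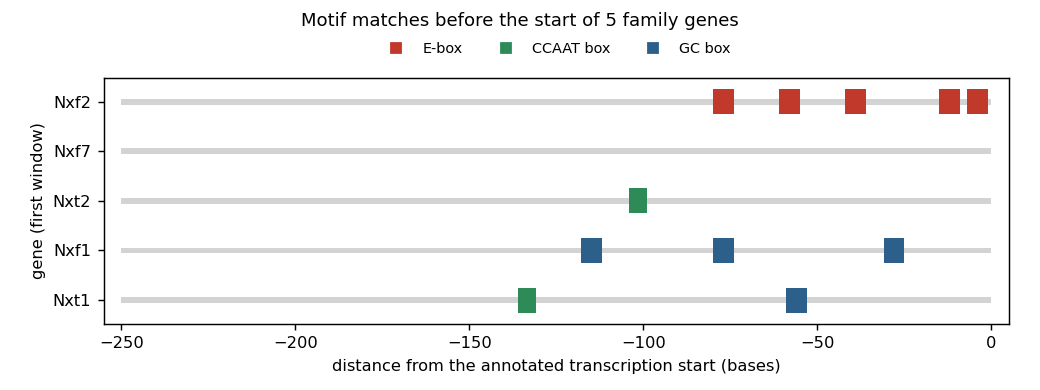
Motif matches in the 250 bases before the most upstream listed start window of Nxf2, Nxf7, Nxt2, Nxf1 and Nxt1 (x axis: bases from the annotated start; coloured blocks: matches on either strand). All 5 E-box matches are in Nxf2; the Nxt2 window, with 1 CCAAT match, lies inside the span of the gene.

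The deposited values are log2 values, 1 per probe set and array. The lower quartile of the arrays lay between 3.66 and 3.75, the median between 5.22 and 5.28 and the upper quartile between 7.22 and 7.35. Probes differ in how brightly they report a transcript, so levels are set against these quartiles only and not against each other. Differences are knockout minus wild type on the log2 scale, and their standard errors (SE) come from the limma fit across all probe sets. In whole tissue, a change in the number of cells of a type and a change in RNA per cell cannot be told apart. The targeted gene followed the labels: Phf13 stood at 6.71, 6.60 and 6.55 in knockout and at 9.55, 9.47 and 9.56 in wild type, a difference of -2.91 (limma adjusted p = 7.7e-06). The control probe sets for 18S ribosomal RNA split the arrays into a high-18S set (knockout 1, wild type 1 and wild type 2, at 12.03 to 12.67) and a low-18S set (knockout 2, knockout 3 and wild type 3, at 9.69 to 10.71). Actin controls near the 3′ end exceeded those near the 5′ end, a measure of how intact the labelled RNA is, by 0.75 to 0.89 in the high-18S set and by 0.56 to 0.59 in the low-18S set. Within both sets the 18S level was lower in knockout, and the part of these measures in the differences below was not tested; differences of the family, of its X-linked neighbours and of the Sertoli, spermatogonial and export lists are therefore also given within each set.

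Nxf1, the general mRNA export receptor, was bright in testis and slightly lower in knockout. Its main probe set read 10.18, 10.15 and 10.08 in the knockout arrays and 10.40, 10.26 and 10.24 in the wild-type arrays. All knockout values were below all wild-type values, but the gap between the nearest arrays was 0.06. The difference was -0.16 (SE 0.09), with -0.15 in the high-18S set and -0.12 in the low-18S set. The other Nxf1 probe set, which lay between the lower quartile and the median of the arrays, gave 4.57, 4.90 and 4.62 in knockout and 4.84, 4.64 and 4.72 in wild type. These groups overlapped and differed by -0.04 (SE 0.11), with -0.17 in the high-18S set and 0.04 in the low-18S set, and the sign also turned with single arrays left out. The sources used here do not say which transcripts each probe set reads.

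Nxt1, the partner that forms a pair with Nxf1, was bright on every array. It read 10.92, 11.12 and 11.03 in knockout and 11.15, 11.09 and 11.08 in wild type. Of the knockout values 2 lay below all wild-type values and 1 lay among them, and the difference of -0.08 (SE 0.09) was smaller than its standard error. It was -0.20 in the high-18S set and less than 0.01 in size in the low-18S set.

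Nxf2, the germ cell paralog, was above the upper quartile of every array and somewhat higher in knockout. It read 7.85, 7.78 and 7.86 in knockout and 7.49, 7.53 and 7.74 in wild type. The groups did not overlap, though wild type 3 came within 0.04 of the lowest knockout array. The means were 7.83 ± 0.04 in knockout and 7.59 ± 0.13 in wild type (SD, n = 3 each), a difference of 0.24 (SE 0.10), or 1.18-fold. It was 0.34 in the high-18S set and 0.08 in the low-18S set.

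Nxf3 showed the clearest separation in the family. It read 9.43, 9.43 and 9.54 in knockout and 8.92, 8.99 and 8.94 in wild type. Both groups were tight, and the lowest knockout array stood 0.44 above the highest wild-type array. The means were 9.47 ± 0.06 in knockout and 8.95 ± 0.04 in wild type (SD, n = 3 each), a difference of 0.52 (SE 0.08), or 1.43-fold. The difference was 0.47 in the high-18S set and 0.54 in the low-18S set, and over all alternatives of the processing it ran from 0.48 to 0.57.

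Nxf7, a mouse paralog, was dim. It read 2.66, 2.64 and 2.22 in knockout and 2.29, 2.33 and 2.48 in wild type, all in the lowest 10% of probe sets on each array. No background level is given with these values, so whether the gene was detected in testis cannot be said. The groups overlapped, with a difference of 0.14 (SE 0.13) that was 0.35 in the high-18S set and -0.05 in the low-18S set. It rested on single arrays, being 0.063 without knockout 1, 0.073 without knockout 2 and 0.28 without knockout 3.

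Nxt2, the X-linked relative of Nxt1, lay around the median of the arrays. It read 5.32, 5.84 and 5.88 in knockout and 4.86, 5.39 and 5.53 in wild type. The groups overlapped, and in both genotypes replicate 1 was the lowest array. The difference of 0.42 (SE 0.20) was 0.20 in the high-18S set and 0.33 in the low-18S set. It moved to 0.22 without wild type 1 and to 0.26 with the 18S sets as a block. With the runs of title codes as a block it was 0.16. A run is a stretch of consecutive codes in the sample titles, which the labels do not call a batch. Wild type 1 stood alone in its run, so it adds nothing to the difference in that fit. In the run of knockout 1 and wild type 2, Nxt2 was slightly lower in knockout (5.32 against 5.39). The other run held knockout 2, knockout 3 and wild type 3.

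**Figure D2:**
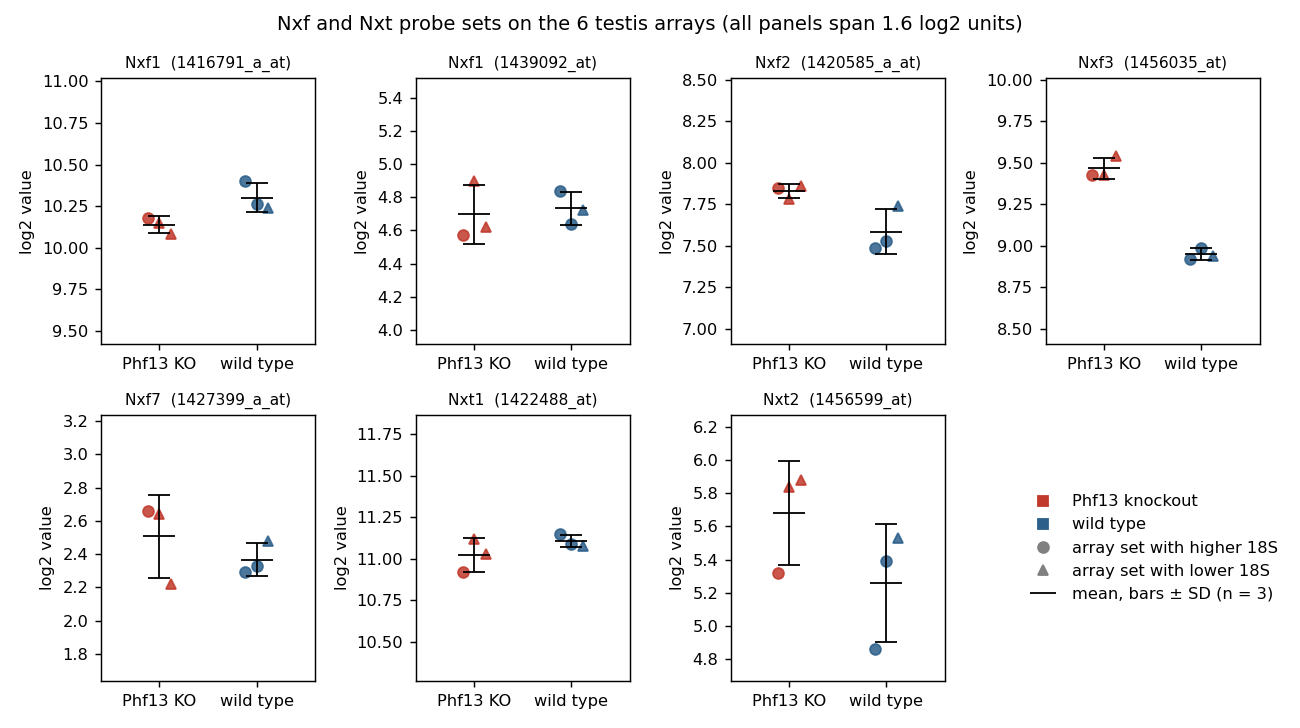
Values of the 7 family probe sets on the 6 arrays (y axis: deposited log2 value, every panel spanning 1.6 units; knockout left, wild type right; marker shape gives the array set by 18S; black bars are the mean ± SD of 3 arrays). The knockout and wild-type arrays separate by 0.44 for Nxf3, by 0.06 for the bright Nxf1 probe set and by 0.04 for Nxf2, and overlap in the other 4 panels.

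Groups without overlap were found for 3 of the 7 family probe sets, against 19.3% of all. These were Nxf2 and Nxf3, with knockout higher (8.62% of all probe sets), and the bright Nxf1 probe set, with knockout lower (10.7%). In the limma fit across all probe sets 0 family probe sets passed an adjusted p under 0.05, against 0.0999% of all, and 2, those of Nxf2 and Nxf3, had an unadjusted p under 0.05, against 15.1% of all. Since this contrast was in view when the family was chosen, nothing is read from these counts.

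With the bright Nxf1 probe set of the same array subtracted, knockout exceeded wild type by 0.68 for Nxf3 and by 0.41 for Nxf2, in both cases with groups that did not overlap. This measure combines the differences of both probe sets and says nothing of their levels relative to each other or of which of them changed. For Nxf7 and Nxt2 the groups of this measure overlapped.

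The differences of all 4 X-linked members were above 0 and those of the 3 autosomal probe sets, 2 of them for Nxf1, were below 0. The groups overlapped in 4 of these 7 probe sets. The X chromosome as a whole differed in the same direction as its 4 members. Of 1127 X-linked probe sets, 85.3% were higher in knockout, the median being 0.20, while the 33589 autosomal probe sets had 49.4% above 0. On the 19 autosomes taken singly the median ran from -0.02 to 0.02 and the share above 0 from 45.4% to 55.0%. The mean of all X-linked probe sets was 5.40, 5.51 and 5.55 in knockout and 5.23, 5.26 and 5.29 in wild type, so the groups did not overlap. Among X-linked probe sets 34.2% had knockout values all above wild type, 0.799% had them all below, and 0% passed limma's adjusted p under 0.05 (36.6% had an unadjusted p under 0.05). The median difference of X-linked probe sets was 0.15 in the high-18S set and 0.22 in the low-18S set, and it ran from 0.19 to 0.22 with any 1 array left out. It was 0.34 for the 557 X-linked probe sets brighter than the median, against -0.04 for the 19529 autosomal ones. This chromosome-wide description was added after the values of the family were seen.

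Among all 1127 X-linked probe sets, dim ones included, the X-linked family genes were ordinary or moderately high. Nxf2, at 0.24, was exceeded by 43.9% of X-linked probe sets, and Nxf7 by 62.5%. Nxt2 was exceeded by 19.2% and Nxf3 by 9.14%. Nxf2, Nxf3 and Nxt2 were brighter than the median, and X-linked probe sets of that kind had a higher median difference, 0.34. Nxf2 lay below that value, and Nxt2 (0.42) and Nxf3 (0.52) lay above it. Among all 45037 probe sets, 1.17% exceeded Nxf3 and 9.14% exceeded Nxf2.

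**Figure D3:**
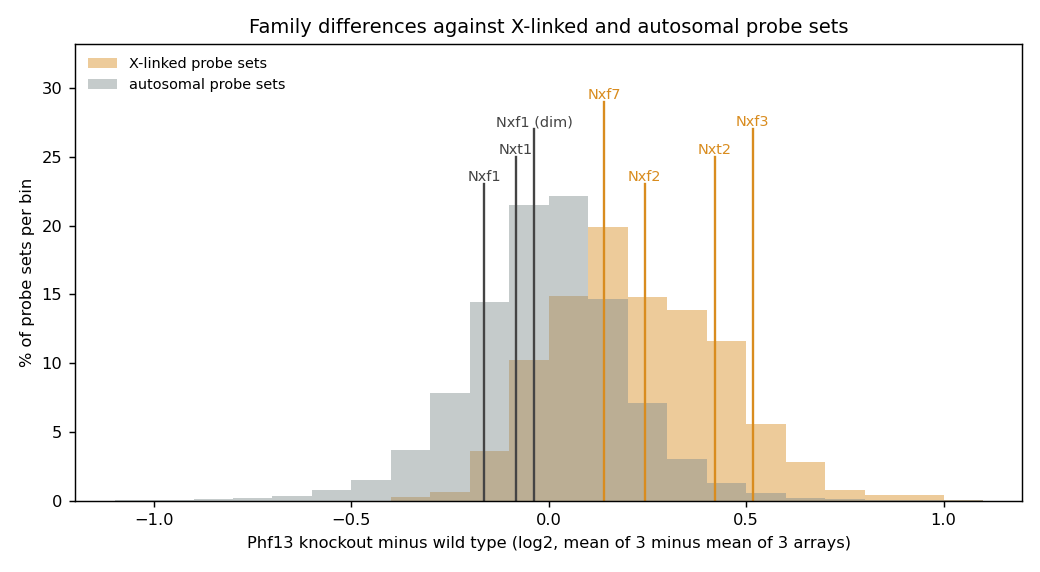
Distribution of the difference between knockout and wild type (x axis, log2; y axis, percent of probe sets in each bin of 0.1) for 1127 X-linked and 33589 autosomal probe sets, with a line for each family probe set (31 autosomal probe sets lie beyond the axis). The X-linked distribution lies to the right, with a median at 0.20, and the lines of Nxf7, Nxf2, Nxt2 and Nxf3 fall inside it.

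The genes between Nxf2 and Nxf3 differed in the same direction. From Nxf2 to Nxf3 the X chromosome holds 18 other protein-coding genes, of which 9 had a probe set with a single symbol. All 9 had a positive difference, from 0.39 for the thymosin gene Tmsb15a to 0.65 for Tcp11x2, a relative of the testis gene Tcp11, with a median of 0.47. In 7 of them the groups did not overlap, always with knockout higher, against 9.92% of all genes and 34.2% of X-linked probe sets. That X-linked share includes dim probe sets, while all measured neighbours but Armcx5 were brighter than the median of the arrays. X-linked probe sets brighter than the median had a median difference of 0.34. The median of the neighbours was 0.37 in the high-18S set and 0.48 in the low-18S set, and all 9 were above 0 in both sets. Nxf3 thus lay within the range of these neighbours, and Nxf2 and Nxf7 lay below it.

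**Figure D4:**
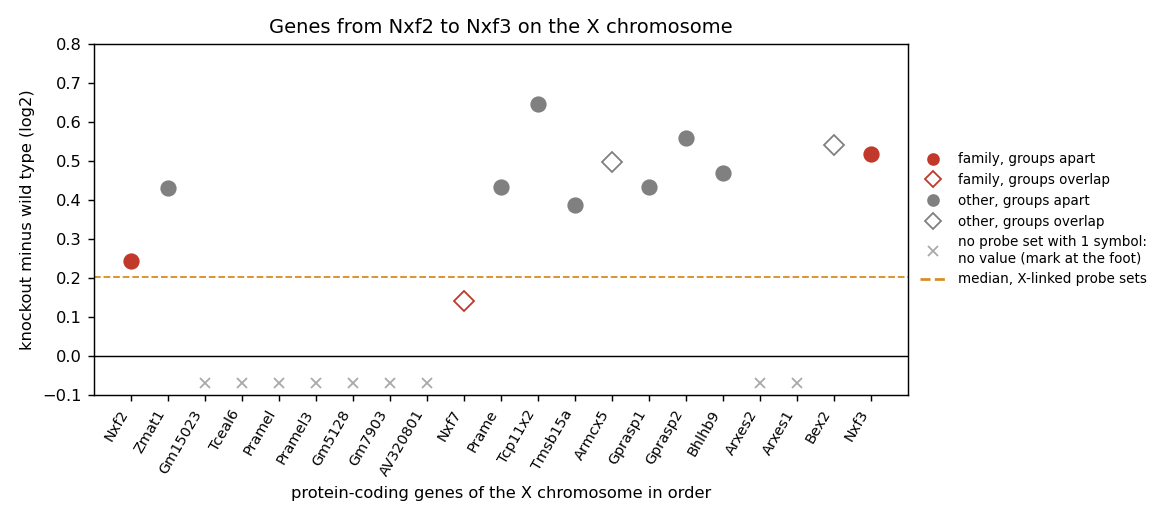
Difference between knockout and wild type (y axis, log2) for the protein-coding genes from Nxf2 to Nxf3 in RefSeq order (x axis; family genes in red, open diamonds where the groups overlap, crosses at the foot for genes with no value). The 9 measured neighbours lie between 0.39 and 0.65. The dashed median at 0.20 is that of all X-linked probe sets, dim ones included. The median of X-linked probe sets brighter than the median was 0.34.

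Because Nxf3 is known from Sertoli cells, its values were set beside a list of 19 Sertoli genes, 18 of them measured. Of these, 16 were above 0, and the median was 0.40 against 0.01 over all 18193 genes. The median was 0.31 in the high-18S set and 0.37 in the low-18S set. In limma 0 passed an adjusted p under 0.05 (0.137% of all genes did), 12 were higher at an unadjusted p under 0.05 (8.58% of all genes) and 0 were lower (8.72%). The mean level of the list was 8.61, 8.74 and 8.81 in knockout and 8.35, 8.37 and 8.43 in wild type. Only 2 of the 18 genes, Gata1 and Rhox5, are X-linked, and the median of the 16 autosomal ones was 0.38. That this list was higher was known from earlier results of these arrays. The genes with the smallest p were the cystatin gene Cst12, at 11.82 in knockout and 11.24 in wild type (difference 0.58, SE 0.11), and Inhbb, which encodes a subunit of inhibin and activin, at 8.49 in knockout and 8.08 in wild type (difference 0.41, SE 0.08). Larger differences than that of Nxf3 were found for 3 of the 18, and the keratin gene Krt18 (-0.13) and Gata4 (-0.03) were below 0. In both of these the groups overlapped, and Krt18 was dim, with a level of 3.64, below the lower quartile of the arrays.

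With the mean of the Sertoli list on the same array subtracted, Nxf3 was higher in knockout by 0.18, compared with 0.52 for Nxf3 alone, and the groups of this measure did not overlap. What part of the Nxf3 difference goes with the Sertoli genes was not tested.

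**Figure D5:**
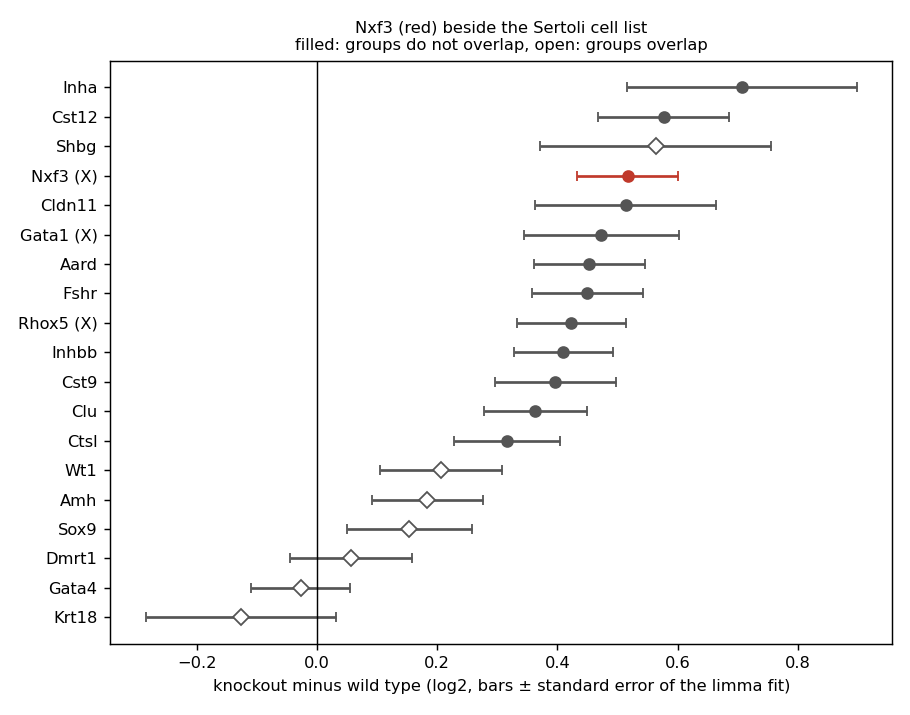
Differences between knockout and wild type (x axis, log2, bars ± standard error of the limma fit) for Nxf3 in red and 18 Sertoli genes (filled symbols where the 3 knockout and 3 wild-type arrays do not overlap, X marks X-linked genes). Nxf3, at 0.52, lies among the upper genes of the list, between Cldn11 and Shbg.

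Nxf2 was set beside germ cell lists in the same way. A list of 9 X-linked genes known from spermatogonia, of which 8 were measured, had 8 positive differences. The median of this list was 0.28 (0.21 in the high-18S set and 0.22 in the low-18S set). For X-linked probe sets the median was 0.20 over all, dim ones included, and 0.34 over those brighter than the median. In limma 0 of the 8 passed over all probe sets, and 4 were higher at an unadjusted p under 0.05, against 8.58% of all genes and 36.3% of X-linked probe sets. Tex13a differed by 0.58 (SE 0.08) and Rhox13 by 0.33 (SE 0.12), with limma adjusted p of 0.0683 and 0.270. Lists of spermatogonial genes not chosen for the X chromosome had smaller medians, which moved with single arrays. That of 9 genes of undifferentiated spermatogonia was 0.01 (0.01 in the high-18S set and -0.12 in the low-18S set), and it ran from -0.08 without wild type 2 to 0.08 without wild type 3. That of 6 genes of differentiating spermatogonia was 0.12 (-0.13 in the high-18S set and 0.13 in the low-18S set), and it ran from 0.02 without knockout 3 to 0.26 without knockout 1. With the mean of a list on the same array subtracted, Nxf2 differed between knockout and wild type by -0.07 against the X-linked list, with groups that overlapped, by 0.29 against the undifferentiated list, with groups that did not overlap, and by 0.12 against the differentiating list, with groups that overlapped. Larger differences than that of Nxf2 were found for 5 of the 8 X-linked genes, 0 of the 9 undifferentiated and 1 of the 6 differentiating genes. Above 0 were 5 of the 9 undifferentiated and 5 of the 6 differentiating genes. Of those 15 genes 0 passed in limma. At an unadjusted p under 0.05 there were 0 higher and 2 lower, against 8.58% and 8.72% of all genes. The 2 were the pluripotency factor gene Lin28a at -0.43, with a level of 4.24, below the median of the arrays, and Id4 at -0.23. The groups did not overlap for these 2, nor for Gfra1, which was higher in knockout by 0.22 (SE 0.10). The defining markers of the tissue were present, with elongating spermatid genes such as Prm2 at 13.81 in knockout and 13.85 in wild type.

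In the rest of the export machinery most genes had small negative differences. Over 6 lists, 74 genes were measured, and 55 had a negative and 19 a positive difference, with a median of -0.08. Autosomal probe sets brighter than the median had 42% above 0, with a median of -0.04. In limma 0 of 74 passed an adjusted p under 0.05, and an unadjusted p under 0.05 was found for 11 lower and 2 higher genes, against 8.72% and 8.58% of all genes. In 24 genes all knockout values lay below all wild-type values and in 0 above, against 13.5% and 9.92% of all genes. Those shares include dim genes, while nearly all export genes were brighter than the median of the arrays. No share matched for brightness is given. Of the 74 genes 3 are X-linked: Cetn2, which encodes a centrin, differed by 0.46 (SE 0.18), the FMRP gene Fmr1 by 0.19 (SE 0.13) and the THO subunit gene Thoc2 by less than 0.01 in size (SE 0.15). The value of Thoc2 combined -0.33 in the high-18S set with 0.39 in the low-18S set, and that of Fmr1 combined -0.03 with 0.26, while Cetn2 was at 0.29 and 0.34. The list medians in the high-18S set and then in the low-18S set were -0.09 and -0.05 for THO and TREX, -0.04 and -0.01 for TREX-2, -0.12 and -0.07 for adaptors, -0.10 and -0.08 for the pore, -0.12 and -0.08 for exportins and Ran, and -0.03 and -0.14 for the FMRP family.

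The THO and TREX list, which loads Nxf1 onto mRNA, had a median of -0.04, with 9 of 13 measured genes below 0. The THO subunit genes Thoc3 and Thoc5 differed by -0.23 (SE 0.09) and -0.18 (SE 0.10). The TREX-2 complex, which ties transcription sites to the pore, had a median of 0.04 over 6 genes, a sign that turned in several settings, with its scaffold gene Mcm3ap at -0.36 (SE 0.12; -0.41 in the high-18S set and -0.19 in the low-18S set) and Cetn2 on the other side. Of 10 measured adaptor, cap-binding and exon junction genes 7 were below 0, with a median of -0.08, Rbm15 at -0.31 (SE 0.10) and the junction gene Casc3 at -0.25 (SE 0.11).

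Nucleoporins and their release factors had a median of -0.10, with 22 of 29 measured genes below 0. In 12 the groups did not overlap, all with knockout lower, against 13.5% of all genes (knockout higher: 9.92%). These shares too include dim genes, while all 29 were brighter than the median of the arrays. The largest difference of the list went the other way. It was that of Seh1l, at 0.47 (SE 0.17; 0.075 in the high-18S set and 0.615 in the low-18S set), with groups that overlapped. Ndc1, which anchors the pore in the membrane, read 7.09, 7.18 and 6.96 in knockout and 7.31, 7.45 and 7.36 in wild type, a difference of -0.30 (SE 0.09, limma adjusted p = 0.241). Nup188, of the inner ring, differed by -0.31 (SE 0.10). All 13 genes of the exportin and Ran list had a negative difference, with a median of -0.09, Xpo4 at -0.26 (SE 0.09) and Xpo6 at -0.32 (SE 0.12). Xpo1, named for its link to human NXF3 and after its value was seen, read 9.64, 9.57 and 9.54 in knockout and 9.50, 9.73 and 9.59 in wild type, a difference of -0.02 (SE 0.09). The FMRP family, whose proteins have been found with germline Nxf proteins of the mouse, had Fxr2 at -0.21 (SE 0.09) and Fxr1 at -0.08 (SE 0.09) next to Fmr1.

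The genes whose 6 values ran most like each member are given as a description, with Pearson's r over 6 arrays that share genotype and array set, out of 12594 genes brighter than the median. For Nxf3 they were the G protein gene Gnai1 (r = 0.998), the phospholipid-transporting ATPase gene Atp8b4 (0.994) and the laminin gene Lamb1 (0.994). For Nxf2 they were Eif2s3y, a translation initiation factor gene of the Y chromosome (0.984), Cmtm8 (0.982) and Ptprk (0.978). Nxf1 ran most like Ccdc173, Lrrc46 and Cgnl1 (0.993 to 0.997), Nxt1 most like Ddost, Hirip3 and Yipf5 (0.983 to 0.989), Nxt2 most like Tspan3, Mfsd13a and St6gal1 (0.994 to 0.996) and Nxf7 most like Insyn2a, Smoc1 and Mchr1 (0.950 to 0.964). None of these 18 genes lies on the X chromosome, and with so many genes and 6 arrays a high r is found for any pattern. Pearson's r also takes no account of size. The difference was 2.67 for Atp8b4, 0.42 for Gnai1 and 0.60 for Lamb1, beside 0.52 for Nxf3.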

How the data were processed

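Total RNA of whole testis was labelled with biotin and hybridised to 6 Affymetrix arrays, per the labels' protocols. The deposited values are log2 values, 1 per probe set, which the authors made in Affymetrix Expression Console (version 1.4.1 in the submitters' processing notes). That they are log2 was inferred from their range, and the sources used here do not give the summarization, normalization or genome build. Of 45101 probe sets, 64 are controls and were not tested. The platform annotation gave 34945 probe sets 1 gene symbol, and 34741 of these were found in RefSeq (GRCm38.p6) by gene identifier, which gave chromosomes and gene order. A gene of a list was read from its brightest probe set (mean of 6 arrays).

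Genotype was fitted on all 45037 other probe sets in R 4.3.3 with limma 3.58.1 (lmFit, eBayes, two-sided, Benjamini-Hochberg, threshold 0.05), and the fit was tested on simulated data. The labels do not say that arrays came from separate animals, so a p-value here reflects the spread of these arrays alone, which may be technical; the number of arrays limits the precision. No 2 arrays held the same values (smallest root mean square difference 0.17, correlations from 0.989 to 0.998), which does not show whether any shared an RNA or an animal. The members and gene lists were chosen with earlier results of these data known. Named are all family genes, Phf13, the 2 genes with the smallest p from an export list and at most 2 from a cell type list. Also named are 3 genes per member by likeness of their 6 values. Some genes were picked once their values had been seen. These were Xpo1, Seh1l, Fxr1, Gfra1 and the neighbours Tmsb15a, Tcp11x2 and Armcx5. The others were Krt18, Gata4, Prm2, the X-linked genes of the lists and the genes of epididymis and fat. Promoter windows came from RefSeq, with windows for 5 of the 6 family genes and none for Nxf3.

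Alternatives were blocks for replicate number, title code run and 18S array set, a filter on dim probe sets, quantile normalization, median centring, robust moderation with a trend, weights for arrays, leaving out each array, averaging all probe sets of a gene and an adjusted p under 0.1. The X-chromosome description and the split of lists by X linkage were added after seeing the data. Other cell type lists (Leydig, myoid and stromal, endothelial, leukocyte, meiotic, spermatid, and epididymis with fat) are summarised in the closing section.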

Additional observations from a re-analysis of the deposited data

How the results depend on the processing

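The difference of the bright Nxf1 probe set, Nxt1, Nxf2, Nxf3, Nxf7 and Nxt2 kept its direction under every alternative run, while that of the dim Nxf1 probe set kept it in 9 of 13. Counts over all probe sets (25 higher, 20 lower) were unstable. They were 12 and 4 with the title code runs as a block, 66 and 44 with a trend and robust moderation, 1654 and 1532 with array weights, and 48 and 52 at an adjusted p under 0.1. Among bright probe sets 42 were lower. With each array left out, 8 to 178 were higher and 4 to 998 lower, the counts being 178 and 998 without wild type 3, 140 and 26 without knockout 1, 10 and 7 without wild type 1, 8 and 4 without wild type 2, 12 and 8 without knockout 2, and 9 and 4 without knockout 3. With the replicate number as a block, 22 were higher and 6 lower; same-numbered arrays deviated together with correlations of 0.26, 0.07 and 0.12, so the numbers were not taken to pair the arrays. The median over the 7 family probe sets, 0.14, was 0.24 among bright ones and ran from 0.063 (without knockout 1) to 0.23 (without knockout 3) with arrays left out, and was 0.073 without knockout 2. The median of X-linked probe sets was 0.34 among bright ones. The nuclear pore median was -0.065 under quantile normalization, -0.12 with array weights, -0.14 with all probe sets of a gene averaged and -0.13 to -0.078 with arrays left out. The exportin and Ran median was -0.050 under quantile normalization and -0.12 to -0.065 with arrays left out. The adaptor median was -0.11 with the 18S sets as a block, -0.039 under quantile normalization and -0.11 to -0.043 with arrays left out. The FMRP median, -0.08, was 0.064 with all probe sets of a gene averaged and -0.11 to -0.035 with arrays left out, and the TREX-2 median, 0.04, was -0.039 with the title code runs as a block, -0.015 with the 18S sets as a block and -0.018 (without wild type 1) to 0.05 with arrays left out, being -0.015 without knockout 3. The THO and TREX median, -0.04, was -0.073 to -0.005 with arrays left out. The cause of these changes was not tested. The dim probe sets of Nxf7 and Nxf1 are limited by signal, for which no background level is given.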

Other observations

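Other cell type lists are given as values. In limma 0 genes of any of them passed an adjusted p under 0.05 (0.137% of all genes did). At an unadjusted p under 0.05, 8.58% of all genes were higher and 8.72% lower, which is the share to set beside each count below. Of 10 peritubular myoid and stromal genes 9 were above 0, and their median of 0.18 was less than 0.01 in size in the high-18S set and 0.68 in the low-18S set, while 4 were higher at an unadjusted p under 0.05. It was 0.02 without wild type 3 and 0.42 without wild type 2. All 11 leukocyte genes, most of them of macrophages, were above 0, and their median of 0.23 was -0.14 in the high-18S set and 0.30 in the low-18S set, while 1 had an unadjusted p under 0.05. It was 0.15 without knockout 3 and 0.47 without knockout 1. Leydig cell genes had a median of 0.20 over 7 genes (at an unadjusted p under 0.05, 2 were higher and 1 was lower), which was 0.05 without knockout 2 and 0.40 without knockout 1. Endothelial genes had one of 0.09 over 6 (1 lower), which was -0.01 without knockout 3 and 0.17 without knockout 1. It was -0.25 among bright probe sets, a setting that left out most of these 6 genes. Genes of epididymis and fat had a median of 0.15 over 6 (2 higher), a value that joins different genes. It was 1.22 among bright probe sets, which again left out most of the list. The fat genes Fabp4, Cidec and Adipoq differed by 2.21 (SE 0.53), 0.40 (SE 0.11) and 0.22 (SE 0.12), and the epididymal genes Lcn8, Lcn9 and Adam28 by 0.08, -0.08 and 0.02.

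Lists of meiotic and later germ cells were near 0 or below. Of 10 genes of pachytene and later spermatocytes 9 had a negative difference. In limma 4 were lower at an unadjusted p under 0.05, against 8.72% of all genes. The median of this list, -0.23, was -0.11 in the high-18S set and -0.20 in the low-18S set. It ran from -0.24 without knockout 1 to -0.18 without knockout 2. Genes of early meiotic prophase had a median of 0.02 over 9 genes (2 lower), round spermatid genes 0.02 over 8 and elongating spermatid genes -0.01 over 9, the last 2 lists with 0 genes at an unadjusted p under 0.05.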
